A study of Mus musculus with 15 samples.

Results

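The long noncoding RNAs Malat1, Neat1, Meg3, Rian, Mirg, Miat, Snhg11 and Gas5 were followed across the hippocampus of 15 mice. They were chosen by name, as RNAs known to be abundant in neurons or to stay in the nucleus, with earlier results of these data known. Their symbols were matched to the gene identifiers of the count files. All 8 were found among the 55401 genes of the files, and all 8 belonged to the 19536 genes with enough reads to be tested. The mice were aged females of the Tg2576 line, which carries human APP with the Swedish mutation under the prion promoter and is genotyped "+/+" in the labels, or their negative littermates, genotyped "-/-" and called WT here. Each mouse received the sesame oil vehicle (Veh) or docosahexaenoic acid (DHA), an omega-3 fatty acid, at 450 mg/kg for 5 weeks. The groups were WT-Veh with 4 mice, WT-DHA with 4, Tg2576-Veh with 4 and Tg2576-DHA with 3. The samples are labelled as hippocampus without separation of cell types, so fewer cells of a type and less RNA per cell cannot be told apart.

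Long noncoding RNAs are transcribed and usually spliced and polyadenylated like messenger RNAs, but many of them act in the nucleus without being translated. Malat1 gathers in nuclear speckles, which hold splicing factors, and Neat1 is the RNA around which paraspeckles are built. Meg3, Rian and Mirg lie in a row in the imprinted Dlk1-Dio3 domain and are expressed from the maternal chromosome. Rian hosts many small nucleolar RNAs (snoRNAs), and Mirg hosts a large cluster of microRNAs. Miat, also called Gomafu, is a nuclear RNA of neurons. Snhg11 and Gas5 are snoRNA host genes, and the spliced Gas5 RNA is a classical member of the 5' terminal oligopyrimidine (TOP) class, whose translation is controlled together with that of ribosomal protein messenger RNAs and which is degraded when it is translated.

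Depth ranged from 17372864 to 46596489 counted reads per mouse, and the 8 RNAs together took between 0.718% and 1.05% of them. App, whose mouse gene also collects reads of the human transgene, lay at 2076 to 2787 CPM (reads of a gene scaled to a library size common to all mice) in the 7 Tg2576 mice, above the 1572 to 1787 CPM of the 8 WT mice. Transcripts of the choroid plexus, a tissue that borders the hippocampus, varied widely. The summed level of 6 of its markers was 314 to 4350 CPM in WT-Veh, 211 to 6858 in WT-DHA, 313 to 4294 in Tg2576-Veh and 4138 to 6351 CPM in Tg2576-DHA. The summed level of 7 hippocampal markers, all of them detected, was 805 to 1093 CPM in WT-Veh, 763 to 1016 in WT-DHA, 721 to 805 in Tg2576-Veh and 732 to 834 CPM in Tg2576-DHA. CPM here are scaled by TMM, a correction for the make-up of each library.

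In GRCm38 (GENCODE M21), Malat1 lies on the minus strand at chr19:5795690-5802672 and Neat1, on the same strand, at chr19:5824708-5845478. Meg3 (chr12:109541001-109571726), Rian (chr12:109603808-109661716) and Mirg (chr12:109729764-109749460) follow each other on the plus strand. Miat lies at chr5:112213228-112229395 on the minus strand, Snhg11 at chr2:158375638-158386151 and Gas5 at chr1:161034422-161038539, both on the plus strand. All values are sums over the annotated exons of the gene.

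The sequences of the starts and ends of some of these RNAs show how they differ as genes. The libraries were made from messenger RNA, and Malat1 is unusual in that its mature 3' end carries no poly(A) tail but an A-rich tract encoded in the genome, which folds with a pair of U-rich motifs into a triple helix. The end of Malat1 as annotated in GENCODE M21 on GRCm38 was read from the single-exon transcript Malat1-201 (chr19:5795957-5796077, minus strand, 121 bases). The capitals mark the U-rich motifs (as T) and the A-rich tract of 18 bases, of which 12 are A in a row. The annotated transcript goes on for 292 bases after that tract.
Malat1 3' end: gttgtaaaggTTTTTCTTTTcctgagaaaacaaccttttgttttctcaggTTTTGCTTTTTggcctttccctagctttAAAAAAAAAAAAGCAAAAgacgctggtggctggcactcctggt

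Promoter windows of 300 bases (250 before and 50 after the annotated start, RefSeq on GRCm38.p6) were present for 7 of the 8 genes. Neat1 had none. Those of Meg3, Miat and Snhg11 are shown because these RNAs varied together among mice, and that of the second Gas5 start because Gas5 varied with ribosomal protein genes. Capitals mark matches, on either strand, to 4 motifs. They are the palindromic cAMP response element TGACGTCA, the TATA box with the letters TATAAA, the CCAAT box with those same 5 letters, and the GC box with the letters GGGCGG.
Meg3, chr12:109540746-109541045, plus strand: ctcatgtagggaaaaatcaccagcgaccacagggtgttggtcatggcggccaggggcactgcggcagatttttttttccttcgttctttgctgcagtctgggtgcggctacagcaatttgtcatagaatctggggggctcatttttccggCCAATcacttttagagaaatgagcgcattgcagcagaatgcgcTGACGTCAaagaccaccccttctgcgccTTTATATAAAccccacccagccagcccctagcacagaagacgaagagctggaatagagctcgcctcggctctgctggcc
Miat, chr5:112228899-112229198, minus strand: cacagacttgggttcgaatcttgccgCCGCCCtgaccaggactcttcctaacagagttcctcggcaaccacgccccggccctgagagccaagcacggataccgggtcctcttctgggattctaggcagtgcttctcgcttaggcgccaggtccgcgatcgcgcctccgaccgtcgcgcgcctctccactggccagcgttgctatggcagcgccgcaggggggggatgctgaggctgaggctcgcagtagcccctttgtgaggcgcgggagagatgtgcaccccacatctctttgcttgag
Snhg11, chr2:158375463-158375762, plus strand: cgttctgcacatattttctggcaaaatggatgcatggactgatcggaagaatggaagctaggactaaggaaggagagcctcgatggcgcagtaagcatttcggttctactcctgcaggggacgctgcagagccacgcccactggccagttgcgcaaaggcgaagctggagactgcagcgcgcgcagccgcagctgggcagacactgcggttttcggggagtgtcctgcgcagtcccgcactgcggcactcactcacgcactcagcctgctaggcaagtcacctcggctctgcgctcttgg
Gas5, chr1:161034916-161035215, plus strand: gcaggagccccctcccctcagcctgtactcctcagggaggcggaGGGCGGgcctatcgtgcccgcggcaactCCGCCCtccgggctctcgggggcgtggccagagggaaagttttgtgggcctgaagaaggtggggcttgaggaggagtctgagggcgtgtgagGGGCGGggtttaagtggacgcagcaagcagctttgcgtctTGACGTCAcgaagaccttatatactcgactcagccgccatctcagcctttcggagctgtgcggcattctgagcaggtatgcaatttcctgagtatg

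The window of the first Meg3 start held the cAMP response element 57 bases before the start, a CCAAT box 100 bases before it and overlapping TATA boxes on both strands, 29 and 25 bases before it. That of the second Meg3 start (chr12:109545148-109545447) held none of the 4 motifs. The second Gas5 start also had a cAMP response element, 46 bases before it, and 3 GC boxes. Miat had a single GC box, and Snhg11 had none of the 4 motifs. Among all 32851 promoter windows of that table, 1.79% held the cAMP response element, 13.6% the TATA box, 37.4% the CCAAT box and 35.7% the GC box. These are matches of letters, and none of the 4 was common to the printed windows of Meg3, Miat and Snhg11. Around the second Gas5 start, a run of 6 pyrimidines (cctttc) began 1 base before the annotated start, the kind of sequence that defines TOP transcripts. A run of at least 5 pyrimidines beginning with C within 10 bases of the start was present in 29% of all windows.

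Per length of annotated exon, Snhg11 and Meg3 were the most abundant of the 8. Snhg11 had 249 ± 32.7 CPM per kb and Meg3 246 ± 30.7 CPM per kb (mean ± SD over all 15 mice), and their order changed from mouse to mouse, with Meg3 the higher in 7 of 15. Malat1 followed with 87.6 ± 20.5 CPM per kb and Miat with 71.8 ± 9.57, Malat1 being the higher in 13 of 15 mice. Gas5 had 32.9 ± 6.35, Rian 16.8 ± 1.82, Neat1 12.1 ± 2.49 and Mirg 4 ± 0.611 CPM per kb. From Gas5 down, this order held in each of the 15 mice. Without the length scale Meg3, at 4444 CPM, was second of all 19536 genes tested, after the mitochondrial mt-Co1 (8214 CPM). Snhg11 was at rank 20, Miat at 151, Malat1 at 185, Rian at 232, Neat1 at 692, Gas5 at 1824 and Mirg at 6777.

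**Figure D1:**
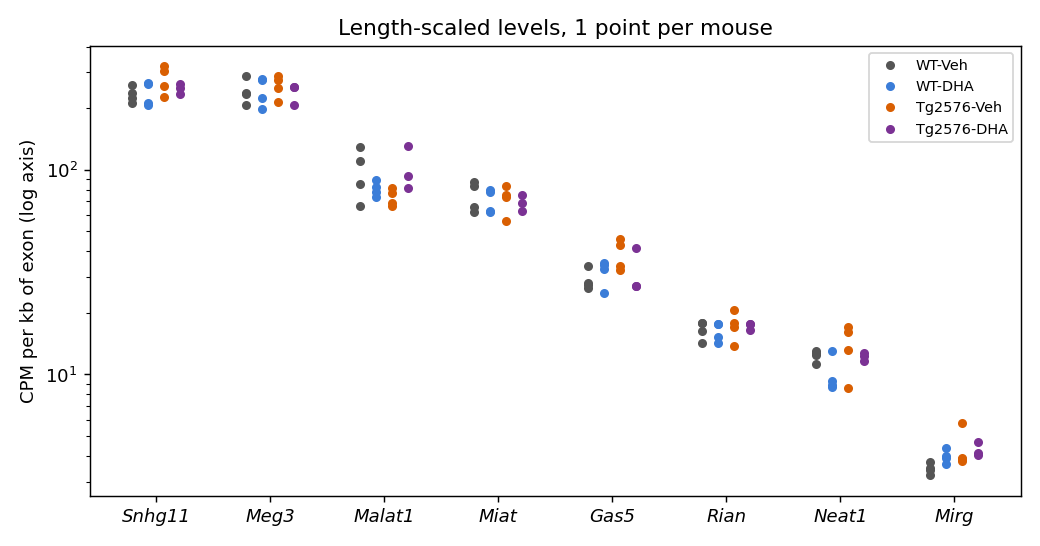
Level of each RNA per kb of annotated exon (CPM per kb, log axis), with 1 point per mouse and the 4 groups in separate columns of points. Snhg11 and Meg3 share the top of the range, and Mirg lies lowest at 3.22 to 5.77 CPM per kb.

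The models behind these levels differ in how much of them could be counted. Reads that fell on more than 1 annotated gene were left out by the counting, and strand was not used. In Miat, 30.4% of exonic bases are shared with other annotated genes, among them 2260 bases with Gm26953 on the opposite strand. For Gas5 the share is 17.8%, nearly all snoRNA genes, for Malat1 7.72%, with 453 bases opposite Gm37376, and for Mirg 5.03%. In Neat1, Meg3, Rian and Snhg11 it is between 1.498% and 3.349%. The exon lengths behind the CPM per kb include these shared bases. The order of Malat1 and Miat given above therefore need not hold per countable base. Snhg11 is typed as protein coding in GENCODE M21. A gene total does not separate the short from the long Neat1 transcript, of which only the long one builds paraspeckles and the short one is polyadenylated.

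Malat1 was at 767, 903, 464 and 597 CPM in WT-Veh, at 624, 546, 516 and 576 CPM in WT-DHA, at 569, 462, 535 and 481 CPM in Tg2576-Veh, and at 914, 567 and 654 CPM in Tg2576-DHA. The highest values came from 2 WT-Veh mice and 1 Tg2576-DHA mouse, and every pair of groups overlapped. The SD of log2 CPM within groups was 0.282, against a median of 0.163 over the 10331 tested genes with a mean of at least 10 CPM.

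Malat1 was the only one of the 8 to pass the threshold of the study, an unadjusted p under 0.01, applied here to edgeR's quasi-likelihood test, and it did so in the interaction, which asks whether the effect of DHA differed between genotypes. In WT mice Malat1 was 0.27 log2 lower with DHA (95% interval -0.64 to 0.09, adjusted p = 0.872), and in Tg2576 mice 0.48 log2 higher (0.08 to 0.87, adjusted p = 0.999). Without WT-Veh mouse 2 the first was 0.11 lower (adjusted p = 0.998), and without Tg2576-DHA mouse 1 the second was 0.26 higher (adjusted p = 0.645). The second passed without WT-Veh mouse 2 (0.47, adjusted p = 0.999), without WT-Veh mouse 3 (0.48, adjusted p = 0.999) and without Tg2576-DHA mouse 2 (0.62). The difference between those effects was 0.75 ± 0.25 (SE) on the log2 scale (95% interval 0.21 to 1.28). Its unadjusted edgeR p was 0.0094, and the p adjusted over all genes was 0.845. Of all genes, 0.829% passed in the interaction. An exact permutation test of the treatment labels within genotypes, added after the data were seen, gave p = 0.0343 for Malat1 (2450 arrangements). Its null is no effect of DHA in either genotype, so it does not test the interaction alone. With each mouse left out in turn, Malat1 still passed in 5 of 15 fits. Without Tg2576-DHA mouse 1, which had the highest value, the interaction was 0.52 (adjusted p = 0.399) and did not pass. It did not pass under limma-voom either (0.68, adjusted p = 0.789), nor in edgeR without a filter on low counts (0.75, adjusted p = 0.886). Between genotypes, Malat1 was 0.42 log2 lower in Tg2576 than in WT under vehicle (exact permutation p = 0.143) and 0.33 log2 higher under DHA (exact permutation p = 0.171), with edgeR adjusted p of 0.398 and 0.781. Without WT-Veh mouse 2 the first of these was 0.24 log2 lower (adjusted p = 0.829), and without WT-Veh mouse 3 it was 0.56 lower and passed (adjusted p = 0.17). Without Tg2576-DHA mouse 1 the difference under DHA was 0.11 higher (adjusted p = 0.842).

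Neat1 stood at 260, 270, 264 and 235 CPM in WT-Veh, at 186, 181, 270 and 194 CPM in WT-DHA, at 179, 274, 336 and 354 CPM in Tg2576-Veh, and at 255, 240 and 266 CPM in Tg2576-DHA. Its lowest and highest values were both in Tg2576-Veh. In WT-DHA, 3 of the 4 mice were below all WT-Veh mice and mouse 3 equalled the highest. The log2 difference of DHA from vehicle in WT was -0.31 (95% interval -0.66 to 0.04, exact permutation p = 0.143, adjusted p = 0.863), and without WT-DHA mouse 3 it was -0.46 (adjusted p = 0.893). Neat1 passed the threshold in none of the 5 comparisons, nor with any mouse left out.
Neat1 and Malat1 are neighbours on chromosome 19. After the group means were removed, Pearson's r between them was -0.137 and Spearman's rho -0.050 over 15 mice (permutation p = 0.431 and 0.846, adjusted over 28 pairs 0.635 and 0.916).

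The proteins that share nuclear bodies with them gave few calls. Of 16 paraspeckle protein genes, none passed the threshold in any comparison, where 0.353% to 3.09% of all genes did. Of 27 nuclear speckle protein genes, only Tra2b passed, a splicing regulator, in a comparison where 3.09% of all genes passed. It was 0.28 ± 0.07 log2 higher in Tg2576 than in WT under vehicle (edgeR adjusted p = 0.177). Tra2b averaged 44.0 ± 2.44 CPM in WT-Veh and 53.5 ± 1.92 CPM in Tg2576-Veh. In Tg2576 mice 23 of the 27 speckle genes were lower with DHA, with a median log2 difference of -0.08 against -0.0039 over all genes, and none of them passed there.

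Meg3, which activates p53 targets in other cells and is abundant in neurons, was at 5182, 4288, 4245 and 3759 CPM in WT-Veh, at 5012, 4987, 4070 and 3573 CPM in WT-DHA, at 4977, 3877, 4559 and 5185 CPM in Tg2576-Veh, and at 3739, 4604 and 4606 CPM in Tg2576-DHA. The 4 groups covered nearly the same range. The log2 differences lay between -0.12 and 0.09 in the 5 comparisons, with adjusted p from 0.845 to 0.999. In the 4 comparisons of 2 groups the 95% intervals stayed within -0.40 and 0.36.

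Rian, the snoRNA host of the domain, was at 574, 522, 454 and 574 CPM in WT-Veh and at 564, 563, 490 and 456 CPM in WT-DHA. In Tg2576-Veh it was at 442, 545, 571 and 662 CPM and in Tg2576-DHA at 562, 526 and 563 CPM. Its SD within groups was 0.172 log2, close to the median of 0.163 over tested genes with a mean of at least 10 CPM, and its log2 differences lay between -0.03 and 0.09. In the 4 comparisons of 2 groups its intervals stayed within -0.27 and 0.34.

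Mirg was the least abundant of the 8 and the only one whose groups separated in any comparison. It was at 27.1, 23.5, 25.5 and 24.9 CPM in WT-Veh, at 29.1, 31.8, 26.6 and 28.6 CPM in WT-DHA, at 28.3, 28.5, 27.5 and 42.1 CPM in Tg2576-Veh, and at 34.1, 29.6 and 30.0 CPM in Tg2576-DHA. Every Tg2576-Veh mouse was above every WT-Veh mouse, at the closest 27.5 against 27.1 CPM. Those values came from 639 and 1258 reads, and counting error was not separated from the gap between them. The log2 difference was 0.32 ± 0.12 (SE, 95% interval 0.06 to 0.58), with an adjusted p of 0.364 in edgeR, and the exact permutation test gave p = 0.0286, the smallest that 4 against 4 mice allow. Of all genes, 5.16% had groups that did not overlap in this comparison. Without Tg2576-Veh mouse 4, which carried 42.1 CPM, the difference was 0.17 (adjusted p = 0.687). Without Tg2576-Veh mouse 3 it was 0.38 and passed the 0.01 threshold (adjusted p = 0.483). In the comparisons under DHA, of DHA in WT and of DHA in Tg2576, where 8.56%, 5.02% and 3.21% of all genes separated, none of the 8 RNAs did.

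Several microRNAs lie inside annotated exons of Mirg, where reads that touch both were not counted. They were not measured here, and 4 of them are shown to make the host gene concrete, each with its seed (bases 2 to 8) in capitals, from RefSeq on GRCm38.p6. No seed is shared among them.
miR-134-5p, chr12:109734145-109734166: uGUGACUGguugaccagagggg
miR-485-3p, chr12:109734946-109734967: aGUCAUACacggcucuccucuc
miR-377-3p, chr12:109740553-109740574: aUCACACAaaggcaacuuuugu
miR-410-3p, chr12:109743764-109743784: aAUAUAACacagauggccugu

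Of 12 protein-coding genes in and around the Dlk1-Dio3 domain, 2 passed with DHA in WT mice, where 1.38% of all genes passed. Dio3, which inactivates thyroid hormone and is expressed from the paternal chromosome, averaged 1.68 ± 0.971 CPM in WT-Veh and 4.68 ± 2.48 CPM in WT-DHA, a log2 difference of 1.48 ± 0.46 (edgeR adjusted p = 0.625). Wdr25, outside the imprinted cluster, was 0.32 ± 0.11 log2 higher (edgeR adjusted p = 0.677). In that comparison 10 of the 12 were higher, with a median log2 difference of 0.23 against -0.01 over all genes. Meg3 and Rian differed there by 0.01 and -0.03 log2. None of the 12 passed in the other 4 comparisons.

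Miat, whose RNA contains repeats bound by splicing factors, was at 810, 776, 578 and 608 CPM in WT-Veh, at 739, 728, 575 and 585 CPM in WT-DHA, at 702, 520, 688 and 775 CPM in Tg2576-Veh, and at 586, 643 and 700 CPM in Tg2576-DHA. In both WT groups it fell into a higher and a lower pair of mice. Its log2 differences lay between -0.08 and 0.02 with adjusted p from 0.931 to 0.999, and its 95% intervals in the comparisons of 2 groups stayed within -0.37 and 0.27.

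Snhg11 was at 2205, 2013, 1804 and 1904 CPM in WT-Veh and at 2255, 2244, 1803 and 1763 CPM in WT-DHA. It was at 2588, 1931, 2185 and 2729 CPM in Tg2576-Veh and at 2148, 2224 and 1991 CPM in Tg2576-DHA. The 2 highest values of all were in Tg2576-Veh, but the other 2 mice of that group lay within the WT-Veh range. Under vehicle Snhg11 was 0.25 ± 0.12 (SE) log2 higher in Tg2576 (95% interval 0.01 to 0.49, exact permutation p = 0.143, edgeR adjusted p = 0.441). Without Tg2576-Veh mouse 2 this was 0.34 and passed (adjusted p = 0.239), and without WT-Veh mouse 3 it was 0.21 (adjusted p = 0.512). The difference under DHA was 0.07 (adjusted p = 0.938), and the interaction was -0.18 (adjusted p = 0.854). None of the 4 tested protein-coding neighbours of Snhg11 on chromosome 2 passed in any comparison, where 0.353% to 3.09% of all genes did.

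Gas5 was at 103, 106, 99.9 and 127 CPM in WT-Veh, at 123, 94.4, 129 and 132 CPM in WT-DHA, at 122, 127, 161 and 172 CPM in Tg2576-Veh, and at 155, 101 and 102 CPM in Tg2576-DHA. Tg2576-Veh held the 2 highest values, and only its lower pair touched the WT-Veh range. Under vehicle Gas5 was 0.42 ± 0.15 (SE) log2 higher in Tg2576 than in WT (95% interval 0.10 to 0.74), with an adjusted p of 0.345 in edgeR, and the exact permutation test gave p = 0.0857. It passed the 0.01 threshold with DESeq2 (adjusted p = 0.194), without TMM factors, with only the 2 groups in the fit and with a replicate block. Without WT-Veh mouse 3 the difference was 0.38 (edgeR adjusted p = 0.375), and without WT-Veh mouse 4 it was 0.50 and passed (adjusted p = 0.338). Under DHA the difference was 0.00 (95% interval -0.34 to 0.34). The interaction was -0.42 (edgeR adjusted p = 0.845, exact permutation p = 0.129 against no DHA effect in either genotype). Without Tg2576-DHA mouse 1, at 155 CPM, Gas5 was 0.51 log2 lower with DHA in Tg2576 (adjusted p = 0.559), and the interaction was -0.66 (adjusted p = 0.364), both past the 0.01 threshold. Only the mice at 101 and 102 CPM were left in that group.

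Of the other snoRNA host genes, 14 of 17 listed were tested. Zfas1, whose spliced RNA is also of the TOP class, was 0.66 ± 0.18 (SE) log2 higher in Tg2576 than in WT under vehicle (edgeR adjusted p = 0.204), with 26.4 ± 5.92 CPM in WT-Veh and 41.7 ± 7.88 CPM in Tg2576-Veh. It was the only one of them to pass in any comparison, and 3.09% of all genes passed in this one. Of the 14, 11 were higher in Tg2576 under vehicle, with a median of 0.31 log2 against 0.0003 over all genes. Of 24 TOP messenger RNAs, such as those of elongation factors and ribosomal proteins, 21 were higher there with a median of 0.15, and none passed. In Tg2576 mice 20 of the 24 were lower with DHA, with a median of -0.10 against -0.0039 over all genes, and none passed. None of 10 genes for nonsense-mediated decay, the pathway that degrades Gas5, passed in any comparison, where 0.353% to 3.09% of all genes did. Of 20 other brain noncoding RNAs tested, only Lncpint passed, at 1.26 ± 0.42 (SE) log2 higher with DHA in Tg2576 (edgeR adjusted p = 0.999), from 0.535 ± 0.271 to 1.27 ± 0.457 CPM. In that comparison 0.353% of all genes passed.

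**Figure D2:**
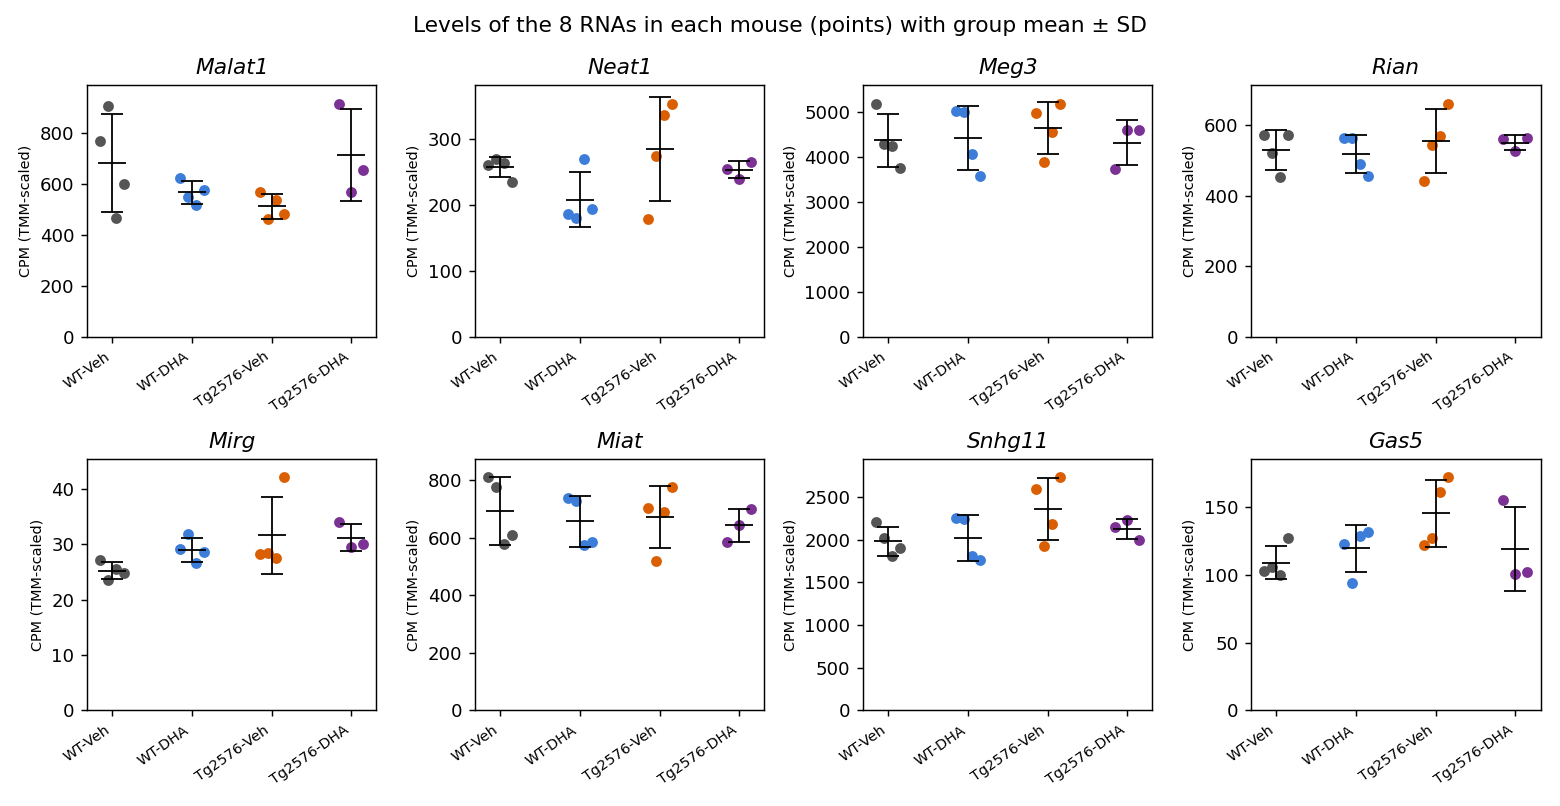
TMM-scaled CPM of each RNA in each mouse (points) by group, with the group mean and SD (n = 4, 4, 4 and 3), axes from 0. Mirg in Tg2576-Veh lies above all WT-Veh mice, with 1 mouse at 42.1 CPM, and in every other comparison of 2 groups within a genotype or treatment the points overlap.

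With Tg2576 against WT under vehicle, none of the 8 passed the threshold, where 3.09% of all tested genes did. There, 4 of the 8 had an unadjusted p under 0.05, as did 10.7% of all genes: Malat1, lower, and Mirg, Snhg11 and Gas5, higher. Of the 8, 6 were higher, with a median log2 difference of 0.12 against 0.0003 over all genes. Under DHA none of the 8 passed, against 1.75% of all genes, and none had an unadjusted p under 0.05, against 6.86%. With DHA in WT none passed against 1.38%, none had an unadjusted p under 0.05 against 5.92%, and 4 were higher and 4 lower. With DHA in Tg2576 none passed against 0.353%, 1 had an unadjusted p under 0.05 against 3.16%, and Malat1 was the only RNA of the 8 that was higher, the other 7 having log2 differences between -0.28 and -0.01. DESeq2 and limma-voom also gave 0 passes in these last 3 comparisons. The comparisons share groups of mice and are not independent of each other.

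**Figure D3:**
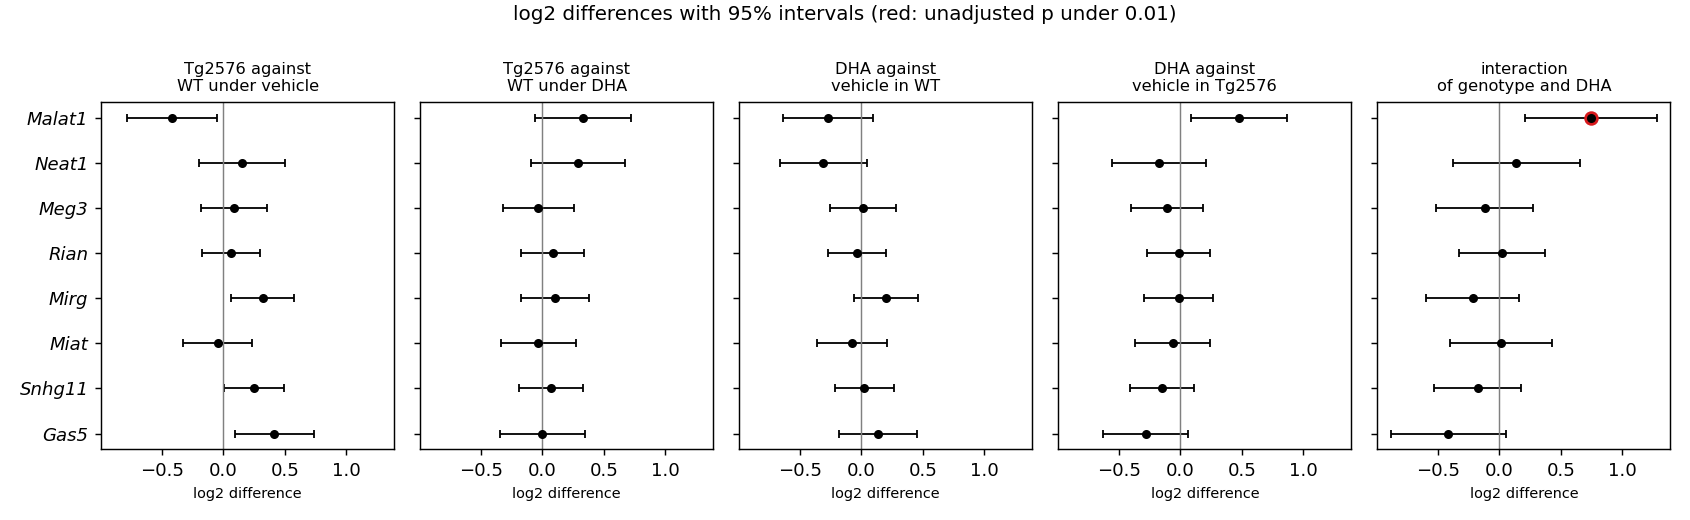
Log2 differences of the 8 RNAs in the 5 comparisons, with 95% intervals from edgeR (points and bars, log2 scale). The larger red point is the single value past the threshold, Malat1 in the interaction at 0.75. The intervals of Neat1, Meg3, Rian and Miat include 0 in all 5 panels.

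Values that differed between libraries moved with these groups. Mitochondrially coded RNA made up 1.92% to 2.84% of reads in WT-Veh, 1.94% to 2.51% in WT-DHA, 2.21% to 3.38% in Tg2576-Veh and 2.72% to 2.81% in Tg2576-DHA, and all 14 tested mitochondrial genes were higher in Tg2576 under vehicle. Of the 14, 5 passed, among them the ribosomal RNAs mt-Rnr2 and mt-Rnr1 at 0.62 log2 each (edgeR adjusted p = 0.101 and 0.177). Gfap, the filament of reactive astrocytes, was 1.02 ± 0.18 (SE) log2 higher in Tg2576 under vehicle (edgeR adjusted p = 0.0766). The other 5 astrocyte markers did not pass, 4 of the 6 were lower, and the median of the 6 was -0.08 log2. The summed level of 7 microglial markers was 280 to 371 CPM in WT-Veh and 307 to 499 CPM in Tg2576-Veh, and that of 7 neuronal markers was 5868 to 6608 and 5989 to 6478 CPM. The sum of 6 interneuron markers was 765 to 1045 CPM in WT-Veh and 700 to 772 CPM in Tg2576-Veh. Of the 6, 4 were lower and 2 higher. There 2 of them passed, both lower, in a comparison where 3.09% of all genes passed. Their part in the differences of the 8 RNAs was not tested.

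Among mice of the same group, 3 of the 8 RNAs varied together. After the group means were removed from log2 CPM, Meg3 and Miat had Pearson's r = 0.851 and Spearman's rho = 0.864 over 15 mice (permutation p = 0.0008 and 0.00082 within groups, adjusted over 28 pairs 0.0224 and 0.0217). Miat and Snhg11 had r = 0.824 and rho = 0.843 (permutation p = 0.00305 and 0.00157, adjusted 0.0324 and 0.0217). Meg3 and Snhg11 had r = 0.806 and rho = 0.854 (permutation p = 0.00347 and 0.00233, adjusted 0.0324 and 0.0217). Without the 2 mice farthest from the median of the first RNA of each pair, r was 0.864, 0.730 and 0.850 in that order. In WT-Veh mouse 1, for example, all 3 were at the top of their group, at 5182, 810 and 2205 CPM, and in Tg2576-Veh mouse 2 all 3 were at the bottom, at 3877, 520 and 1931 CPM. The mice fell on both sides of a gap in Miat, with none between -0.13 and 0.00 log2 from its group mean. Among the 9 mice above the gap, r was 0.548 for Meg3 and Miat, 0.516 for Miat and Snhg11 and 0.737 for Meg3 and Snhg11, and among the 6 below it was -0.027, 0.769 and 0.192. The sides were set on Miat itself, after the data were seen, which narrows its range and lowers r with Miat on each side for a smooth relation too, so these values do not show whether the relation rests on the step.

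The other 25 pairs did not pass after adjustment. Within the Dlk1-Dio3 domain, Meg3 and Rian had r = 0.329 and rho = 0.511 (permutation p = 0.291 and 0.108, adjusted 0.53 and 0.302), and Meg3 and Mirg had r = 0.341 and rho = 0.329 (permutation p = 0.261 and 0.247, adjusted 0.53 and 0.494). Rian and Mirg had r = 0.595 and rho = 0.514 (permutation p = 0.132 and 0.0846, adjusted 0.445 and 0.302). Whether these r differ from those of the 3 RNAs above was not tested. With 1 mouse left out, r of the 3 pairs stayed between 0.743 and 0.905, but the adjusted p was up to 0.154 without Tg2576-Veh mouse 2, and all 3 pairs passed in only 2 of the 15 such sets.

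**Figure D4:**
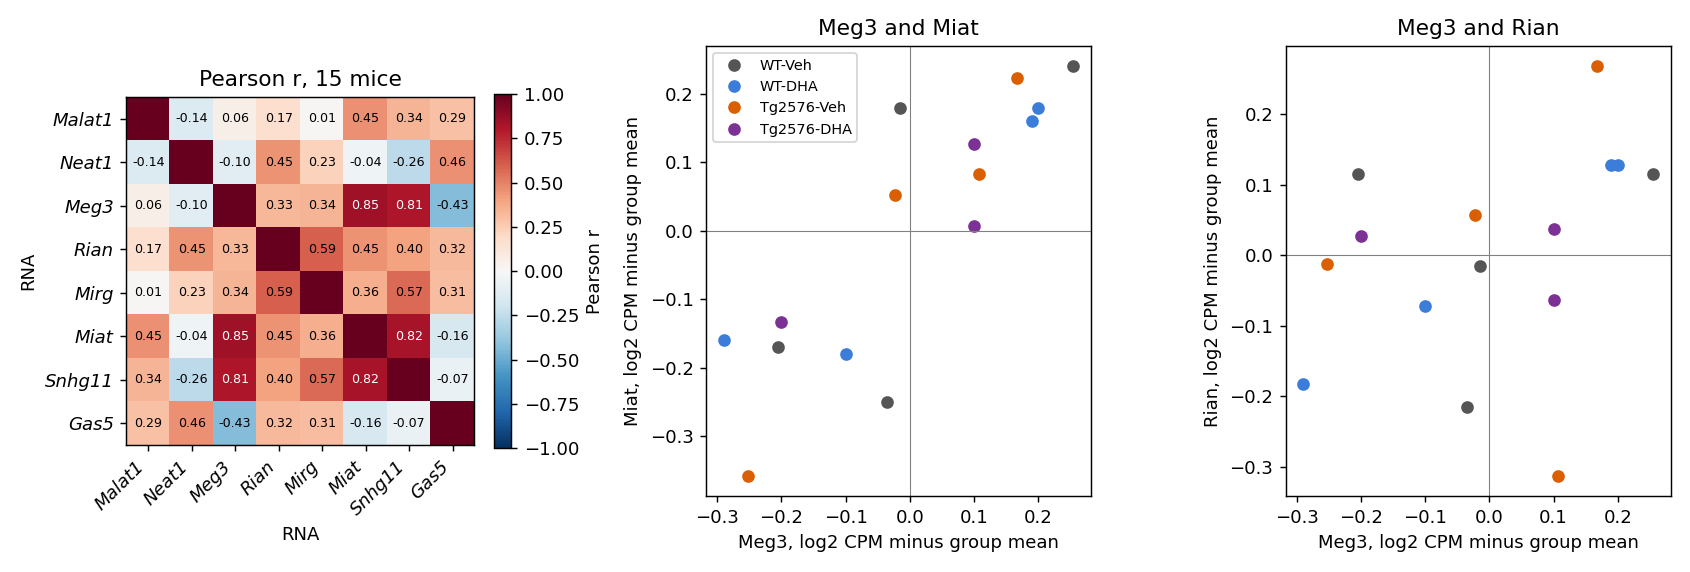
Left, Pearson's r between the 8 RNAs over 15 mice after removal of group means from log2 CPM. Middle and right, Meg3 against Miat (r = 0.851) and Meg3 against Rian (r = 0.329), with 1 point per mouse and log2 CPM minus the group mean on both axes.

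As a description, each RNA was compared with all 10323 other tested genes of at least 10 CPM by Pearson's r of log2 CPM over the 15 mice, which share their libraries and group differences. The genes most like Meg3 were Leng8 (r = 0.887), Srrm2 (0.882), a scaffold of nuclear speckles, and Nup210 (0.857), a nuclear pore protein. Those most like Snhg11 were Mtf2 (0.887), a Polycomb-associated protein, Arglu1 (0.859), a splicing regulator, and Ap1g2 (0.850). Those most like Miat were Ascc2 (0.858), Ccdc159 (0.850) and Inpp5b (0.841). For nuclear speckle genes the median r was 0.289 with Meg3, 0.394 with Miat and 0.331 with Snhg11, against -0.005, 0.044 and -0.025 over all genes. Of the 27, 6, 8 and 6 had r over 0.5 with these RNAs, against 5.95%, 7.38% and 4.42% of all genes.

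For Malat1 the closest genes were Sod2 (0.810), the mitochondrial superoxide dismutase, Pdhx (0.806), of the pyruvate dehydrogenase complex, and Trpc1 (0.773), a cation channel. No nuclear speckle gene had r over 0.5 with Malat1, and their median was -0.017. For Neat1 they were Litaf (0.902), Cd9 (0.854) and Tpm4 (0.852). The median r of Neat1 with 6 oligodendrocyte markers was 0.558 and with 6 microglial markers 0.611, against -0.034 over all genes. Oligodendrocyte markers summed to 5587 CPM in Tg2576-Veh mouse 1, where Neat1 was lowest, and to 7625 to 8116 CPM in the other 3 mice of that group. In WT-DHA they summed to 7965 CPM in mouse 3, where Neat1 was highest, and to 5574 to 7470 CPM in the others. After removal of group means, Neat1 and the log2 oligodendrocyte sum had r = 0.795 and rho = 0.621 (permutation p = 0.00361 and 0.0186), which did not pass when adjusted over 96 relations of the 8 RNAs with library measures and marker sums (0.173 and 0.499). Without the 2 mice farthest on the marker sum, r was 0.832.

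Rian was most like R3hdm1 (0.871), Rmnd1 (0.840) and Glrx2 (0.827), and Mirg was most like Rufy1 (0.857), Tm7sf2 (0.840) and Pradc1 (0.834). Rian had a median r of 0.650 with 10 mitochondrially coded genes, 8 of which were over 0.5, against 0.009 over all genes. Within groups, Rian and the mitochondrial share of reads had r = 0.765 and rho = 0.713 (permutation p = 0.0141 and 0.0161, adjusted 0.338 and 0.499), and r was 0.798 without the 2 farthest mice.

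The genes nearest to Gas5 were ribosomal protein genes, and the r were above those of the nearest gene of each of the other 7 RNAs. Its closest genes were Rpl17 (r = 0.980, rho = 0.921), Rps27 (0.974, rho = 0.943) and Rps27a (0.960, rho = 0.939). Rps27 was at 150, 168, 161 and 206 CPM in WT-Veh, 198, 159, 221 and 208 in WT-DHA, 189, 208, 252 and 287 in Tg2576-Veh, and 265, 149 and 171 CPM in Tg2576-DHA. The mice high in Gas5, Tg2576-Veh mice 3 and 4 and Tg2576-DHA mouse 1, were the same 3 that were highest in Rps27. Of the 24 TOP messenger RNAs, 19 had r over 0.5 with Gas5 and the median was 0.760, against 19% and -0.023 over all genes. Of 6 other snoRNA host genes at this level, 4 had r over 0.5, with a median of 0.721.

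A measure that set short against long genes moved with Gas5 as well. In each mouse, the median log2 deviation of 124 protein-coding genes with under 1000 bases of exon, minus that of 5066 with over 5000, was taken as a measure of differences that go with length. It ran from -0.345 in WT-Veh mouse 1 to 0.466 in Tg2576-Veh mouse 4, and was 0.426 in Tg2576-DHA mouse 1. With group means removed, Gas5 and this measure had r = 0.913 and rho = 0.907 (permutation p = 0.00052 and 0.00041, adjusted over 96 relations 0.0499 and 0.0394), and r was 0.854 without the 2 farthest mice. In an edgeR fit with this measure as a covariate, chosen after seeing the data, the Gas5 slope was 0.79 log2 per unit (adjusted p = 6.58e-05), and Gas5 was 0.21 log2 higher in Tg2576 under vehicle (adjusted p = 0.325) in place of 0.42. In the same fit the Malat1 interaction was 0.76 (adjusted p = 0.92) and did not pass. Of the other 7 RNAs, none had a slope with an adjusted p under 0.05. Meg3, Miat and Snhg11, which varied together, ran against this measure within groups, at r = -0.526, -0.356 and -0.251. Their permutation p adjusted over 96 relations was 0.6, 0.72 and 0.824. Without the 2 farthest mice r was -0.683, -0.563 and -0.649. The part of this measure in their shared variation was not tested. The measure was made from the same libraries as the Gas5 values. How many of its 124 short genes encode ribosomal proteins was not counted. Rpl17, Rps27 and Rps27a, at 1043 to 1972 bases of exon, were not among them.

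**Figure D5:**
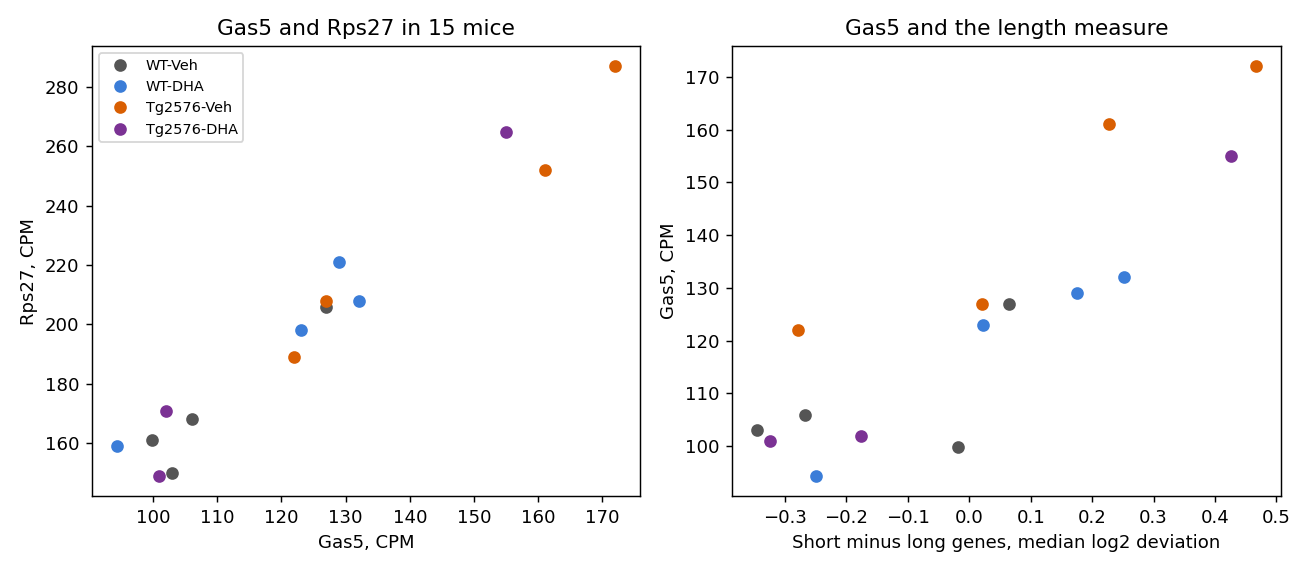
Left, Gas5 against Rps27 in CPM (r = 0.974 on log2 CPM, 15 mice). Right, Gas5 in CPM against the median log2 deviation of short minus long protein-coding genes in each mouse. Tg2576-Veh mice 3 and 4 and Tg2576-DHA mouse 1 lie at the upper right of both panels.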

How the data were processed

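Hippocampal RNA from 15 mice was extracted with Trizol and sequenced. The labels name a SMARTER mRNA-Seq kit and the study's methods a TruSeq Stranded mRNA kit. The deposited values were raw read counts per gene that the authors made with featureCounts 1.6.0 (exons summed by gene, GENCODE vM25, default settings: no strand, reads on several genes or sites not counted) after alignment with STAR 2.6.1c to GRCm38, per the labels and the file headers. The members and gene lists were chosen with earlier results of these data known. Annotation (types, overlaps, symbols for 55141 of 55401 identifiers) came from GENCODE M21, also GRCm38.

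Counts were filtered with filterByExpr (minimum 10), scaled by TMM and fitted with edgeR 4.0.16 (quasi-likelihood, robust, 1 coefficient per group, all 15 mice, common biological variation 20.1%). A call is an unadjusted p < 0.01, the study's threshold, applied to this test, and adjusted p are Benjamini-Hochberg over all 19536 genes. Log2 CPM used a prior count of 2. Group differences of single RNAs were also tested by exact two-sided permutation, and correlations by 100000 two-sided permutations within groups, in Python 3.11.15. The 8 RNAs are always named, and of each other list at most the 3 genes of lowest p among those called. Nearest genes are the 3 of highest r. The fit was tested on simulated data for DHA against vehicle in WT (19225 genes): 88% of 200 genes changed by 1 log2 were called, and 0.857% of the others. Smaller changes, such as those of the 8 RNAs, and the interaction were not simulated, and genes were drawn independently. Alternatives were DESeq2 1.42.0, limma-voom (limma 3.58.1), other scalings and filters, only the groups compared, non-robust dispersions, a replicate block and each mouse left out. The labels number the samples of a group, and p-values measure the spread between these samples. Mirg, the lowest, had 486 to 1258 reads. Its coefficient of variation was 5.92% in WT-Veh, 7.31% in WT-DHA, 22.2% in Tg2576-Veh and 7.89% in Tg2576-DHA. Counting error was not separated from its spread among mice.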

Additional observations from a re-analysis of the deposited data

Results flagged for a closer look

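Neat1 in WT-DHA mouse 3 was at 270 CPM while the other 3 mice of the group were at 181 to 194 CPM. Mirg in Tg2576-Veh mouse 4 was at 42.1 CPM while the other 3 were at 27.5 to 28.5 CPM. Both stood apart from their group by Dixon's limit, which chance exceeds in about 1 of 20 groups, and 24 groups of 4 mice were examined. Without WT-DHA mouse 3, Neat1 was 0.46 log2 lower with DHA in WT (edgeR, adjusted p = 0.893). Without Tg2576-Veh mouse 4, Mirg was 0.17 log2 higher in Tg2576 under vehicle (edgeR, adjusted p = 0.687). The effect of DHA on Malat1 differed between genotypes by 0.75 log2 (edgeR, adjusted p = 0.845). All 4 WT-DHA mice were below the WT-Veh mean of 683 CPM, and all 3 Tg2576-DHA mice were above the Tg2576-Veh mean of 512 CPM. The groups still overlapped. WT-Veh mouse 3, at 464 CPM, was below all WT-DHA mice. Tg2576-DHA mouse 2, at 567 CPM, was below Tg2576-Veh mouse 1, at 569 CPM. Without Tg2576-DHA mouse 1 the interaction was 0.52 (edgeR, adjusted p = 0.399).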

How the results depend on the processing

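None of the 432 values of the 8 RNAs under other settings, and none of the 600 with 1 mouse left out, changed direction while past the threshold, and 425 and 577 of them stayed on their side of it. With Tg2576 against WT under vehicle, 1 of the 8 RNAs (Gas5) passed under DESeq2, without TMM factors, with only the 2 groups compared and with the replicate block, against 0 otherwise, and 0 to 2 passed with 1 mouse left out. In the interaction 0 passed under limma-voom (Malat1 0.68, adjusted p = 0.789), without a filter on low counts (0.75, adjusted p = 0.886) and with short against long genes as a covariate, chosen after seeing the data, in place of 1, and 0 to 1 with 1 mouse left out. With DHA in Tg2576, 0 to 1 passed with 1 mouse left out, either Malat1 or Gas5. The count of co-varying pairs was 3 under both other scalings and 0 to 3 with 1 mouse left out. The causes were not tested. Same-numbered mice of different groups had correlations of their deviations from -0.244 to 0.213, and differently numbered mice from -0.235 to 0.230. This gave no sign that the numbers pair the mice, but cannot exclude it. The replicate block gave 661, 246, 311, 54 and 116 calls among all genes in the 5 comparisons, against 604, 342, 270, 69 and 162.

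Among all genes, calls for DHA in Tg2576 numbered 126 under DESeq2, 126 without a filter, 29 with only the 2 groups and 144 with the covariate. For the interaction they were 247 under DESeq2 and 289 without a filter, for DHA in WT 431 with only the 2 groups, and for Tg2576 against WT under DHA 633 with the covariate. With 1 mouse left out they ranged over 312 to 965, 190 to 460, 156 to 331, 53 to 312 and 87 to 527 in the 5 comparisons. Without TMM factors 303 genes were higher and 269 lower under vehicle, against 226 and 378, and 271 and 72 under DHA, against 208 and 134. The lowest of the 8 RNAs, Mirg, had at least 486 reads in every mouse.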
